A study of Bos taurus with 2 samples.

Results

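Collagen chain genes were taken as every gene whose name is COL, a number, A and a number, which gave 44 of the 17846 genes measured. By the kind of collagen they encode, 11 are fibrillar, 6 belong to type IV of basement membranes, 2 are multiplexins and 5 belong to type VI. A further 10 are fibril-associated, 4 are transmembrane, 3 form short-chain networks, 1 forms anchoring fibrils and 2 fit none of these. Single-cell RNA was measured in bovine embryos flushed at day 25 of development, into which bovine embryonic stem cells (bESC) had been incorporated, so all cells came from chimeric embryos, with no embryo without bESC to compare with. The embryos were cut up, digested with papain and DNase I and sorted, and the labels do not describe the gate of the sort. The samples form 1 group of 2 libraries (replicates 1 and 2). The labels do not say whether these came from different embryos. Each p-value sets a difference between groups against how far such differences vary between these libraries, after the shift common to a library is removed. That spread is pooled over the groups and, for each gene, leans mostly on other genes. A gene's own counts give 9 degrees of freedom and the other genes a median of 65.1. The spread may be technical.

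Collagens are built from chains wound into a triple helix, and each gene encodes 1 kind of chain. Fibrillar collagens pack side by side into the fibrils that give connective tissue its strength, type IV collagens join into the sheet at the core of basement membranes, and the other families coat fibrils, link them to membranes or span the cell surface. In embryos most fibrillar collagen is made by mesenchyme, while neural epithelium rests on a basement membrane that contains type IV and type XVIII collagen.

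The libraries held 1973 and 2464 barcodes, with medians of 4889 and 5601 UMI. A UMI, or unique molecular identifier, marks 1 captured RNA molecule. The libraries shared 6 barcode sequences. After filters 1842 and 2310 cells were analysed. Cells were clustered without the collagen genes and without the lists of collagen partners, and clusters were named from fixed markers. Numbers are for replicate 1 and then replicate 2. Neural progenitor-like cells (850 and 939 cells, 6 clusters) were the reference. The other groups were neuron-like (300 and 346), floor plate-like (164 and 274), cardiomyocyte-like (11 and 20) and surface or gut epithelium-like cells (17 and 19), and the unnamed clusters 1 (170 and 206), 5 (87 and 186), 12 (75 and 95), 14 (35 and 71) and 16 (32 and 37). Clusters 1, 5, 12 and 16 carried 5 to 7 of 9 neural progenitor markers, SOX2 and NES included, and stayed unnamed because genes of a different marker list were more frequent among their leading genes. Cluster 14, led by KLK1, A2M and AEBP1, was left unnamed because under 3 markers of any class met the naming rule (at least 20 CPM and at least 25% of the highest cluster). Of its mesenchyme markers 9 of 14 had a UMI, at 131 and 149 CPM summed (marker sums are without scaling factors). Markers of other classes were far higher in it. Of the hepatic or yolk sac endoderm markers 5 of 10 had a UMI, at 28086 and 26633 CPM, of which APOA1 made 18529 and 18288, with AFP, APOA2, FGB, FGA and HNF4A at 0. Of the epithelial markers 5 of 8 had a UMI, at 8648 and 8993 CPM, mostly the keratin KRT19, with EPCAM, CDH1 and TP63 at 0. In neural progenitor-like cells these lists summed to 101 and 102 CPM and to 93.2 and 99.6 CPM. Cardiomyocyte-like cells had UMI of all 8 cardiomyocyte markers (5951 and 600.0 CPM summed, unequal between libraries) and of 13 of 14 mesenchyme markers (347 and 414 CPM, with PRRX1 at 0), against 38.5 and 48.8 CPM of the mesenchyme markers in neural progenitor-like cells. They also had 5 of 8 epithelial markers, at 5442 and 4332 CPM, with CDH1, TP63 and CLDN6 at 0, and 3 of 5 mesothelium or coelomic markers (WT1, MSLN and ALDH1A2), at 223 and 222 CPM against 9.75 and 10.4 in the reference. The part of such markers in the results was not tested.

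Collagen transcripts were concentrated in cluster 14. Collagen chains made up 0.25% and 0.331% of all UMI in the libraries, and cluster 14, with 1.90% and 3.07% of the cells and 3.18% and 5.12% of the UMI, held 56.4% and 66.3% of the collagen UMI. Within cluster 14 they were 4.43 and 4.29% of UMI, and single cells ranged from 1.47 to 8.5% in replicate 1 and from 0.995 to 11.6% in replicate 2. Cardiomyocyte-like cells came next of the 10 groups above in both libraries, at 0.568 and 0.508%. Neural progenitor-like cells were at 0.146 and 0.137%, cluster 1 at 0.125 and 0.121% and floor plate-like cells at 0.124 and 0.117%. Cluster 5 was at 0.105 and 0.104%, cluster 16 at 0.109 and 0.0934%, surface or gut epithelium-like cells at 0.0825 and 0.113% and cluster 12 at 0.0771 and 0.0737%. Neuron-like cells were lowest of these 10 groups, at 0.0392 and 0.0337%. Groups with too few cells in a library, some of them higher or lower than these, are described below. The mix of chains differed as well: fibrillar chains were 74.8 and 76.0% of collagen UMI in cluster 14, 57.6 and 58.3% in floor plate-like cells and 33.1 and 33.6% in neural progenitor-like cells, and type IV chains 12 and 11.3% in cluster 14 against 31.5 and 32.9% in the reference.

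**Figure D1:**
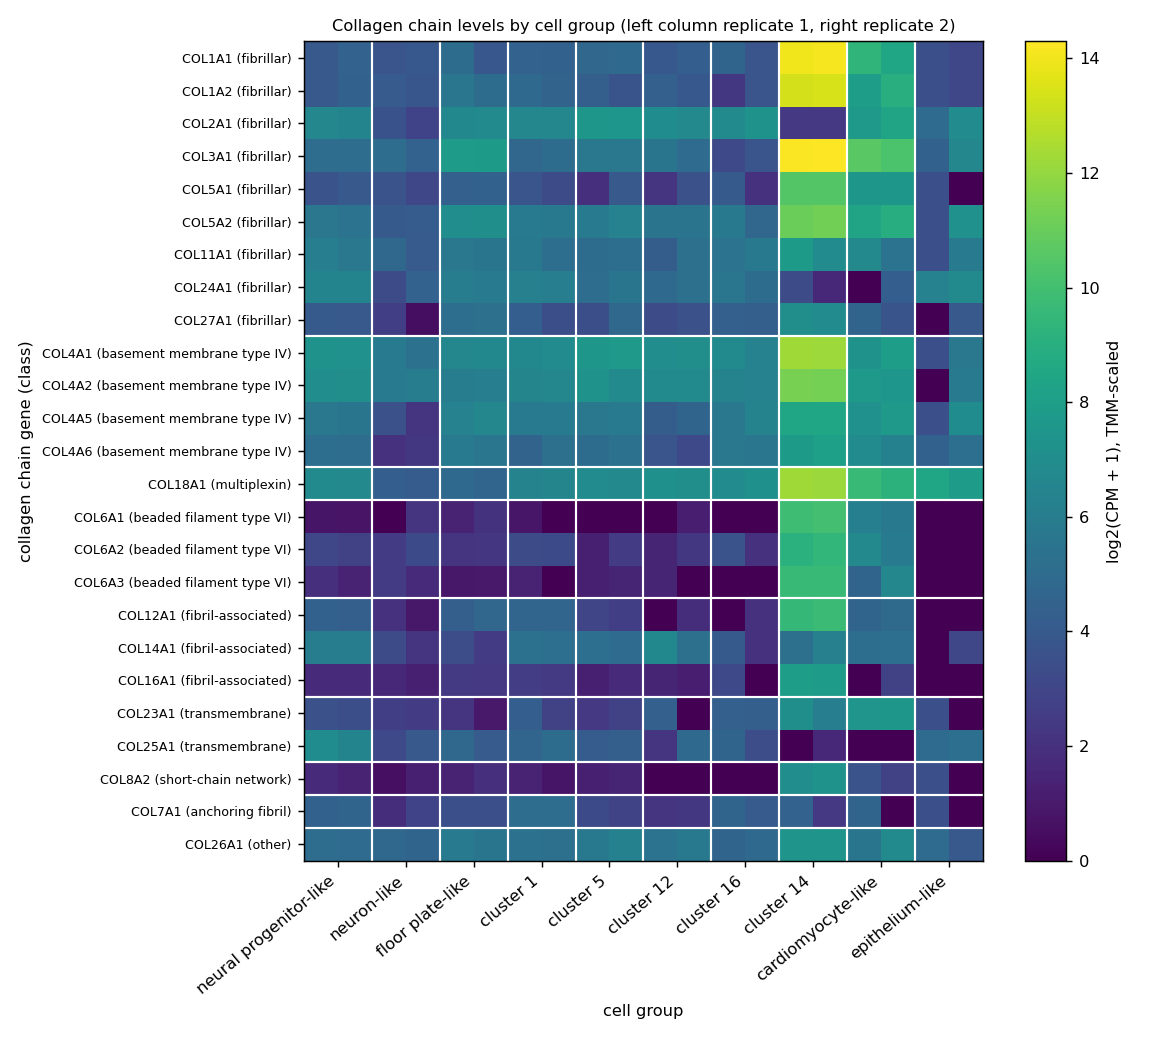
Level of the 25 collagen chain genes that reached 20 CPM in both libraries of at least 1 group, as log2(CPM + 1) with TMM scaling, for each cell group (columns; replicate 1 left, replicate 2 right) and gene (rows, grouped by kind of collagen). Cluster 14 has the highest levels of most fibrillar, type IV and type VI chains, and COL1A1 there stood at 16331 and 17326 CPM.

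Levels below are CPM, UMI counts scaled to a fixed total after TMM correction (a correction for a few abundant genes taking up a library), in replicates 1 and 2. They are not divided by gene length, because the libraries capture the 3′ end of each transcript, so levels of different genes compare captured transcripts. On this scale summed collagen stood at 66614 and 69467 CPM in cluster 14, 5363 and 5066 in cardiomyocyte-like cells, 1239 and 1178 in floor plate-like cells, 1193 and 1108 in the reference cells and 394 and 347 in neuron-like cells. Without TMM factors the mean over libraries in cluster 14 was 43603 CPM in place of 68041. The scaling raised all genes of cluster 14 by 0.94 on the log2 scale relative to neural progenitor-like cells, and those of clusters 12 and 5, neuron-like, floor plate-like and cardiomyocyte-like cells by 0.25 to 0.52. Of the chains called different in any group only COL4A1 in cluster 5 changed direction without it.

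Counts summed per group and library were compared with neural progenitor-like cells over 12023 genes, of which 28 were collagen chains, and a gene was called at an adjusted p under 0.05. In cluster 14, 21 of 28 chains were higher and 3 lower, where 28.0% of all genes tested were higher and 33.9% lower. In cardiomyocyte-like cells 14 were higher and 2 lower (all genes 13.0% and 17.2%). The median log2 fold change of the chains was 3.76 in cluster 14 and 1.54 in cardiomyocyte-like cells, against -0.29 and -0.39 for all genes. Neuron-like cells stood at the other end, with 0 chains higher and 17 lower (all genes 31.8% and 29.2%) and a median of -1.50 against 0.01. Chains moved both ways in floor plate-like cells, 9 higher and 8 lower (all genes 24.1% and 32.3%), and in cluster 5, 6 and 6 (all genes 26.1% and 36.7%), shares near those of all genes. In cluster 12 the count was 1 higher and 8 lower (all genes 24.2% and 33.0%), and in cluster 16 0 and 6 (11.1% and 11.4%). It was 0 and 4 (8.15% and 9.09%) in cluster 1, and in surface or gut epithelium-like cells 1 and 4 (13.9% and 16.5%). Where edgeR called 0 chains higher, 0 were higher at an unadjusted p under 0.05 in neuron-like cells, 2 in cluster 16 and 1 in cluster 1, and DESeq2's Wald test called 0, 1 and 0. The groups were cut from the same cells, so the p-values say nothing of how far the groups are distinct. All comparisons share the reference cells.

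The choice of test moved some of these counts. With limma-trend on log2 CPM in place of edgeR, cluster 14 had 19 higher and 3 lower and cardiomyocyte-like cells 14 higher and 2 lower, but floor plate-like cells had 1 higher and 2 lower, neuron-like cells 0 higher and 8 lower and cluster 5 0 higher and 1 lower. Cluster 12 had 0 higher and 3 lower, cluster 16 0 higher and 3 lower and cluster 1 0 higher and 0 lower. DESeq2's Wald test left 130 results of named genes in a group the same, lost 6 calls and gained 2. A call that edgeR made and limma-trend did not is marked below as by edgeR alone. The mark leaves the Wald test aside, which made most of the named calls where it was run. Such calls had limma-trend adjusted p of 0.074 to 0.64 in floor plate-like cells, 0.060 to 0.57 in neuron-like cells, 0.11 to 0.59 in cluster 5, 0.15 to 0.37 in cluster 12 and 0.72 to 1.0 in cluster 1. With 1 library left out there is no test, and every called chain kept its direction in the library that remained. These chains had been called from both libraries together, so this outcome was likely in advance and is little support for the calls.

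**Figure D2:**
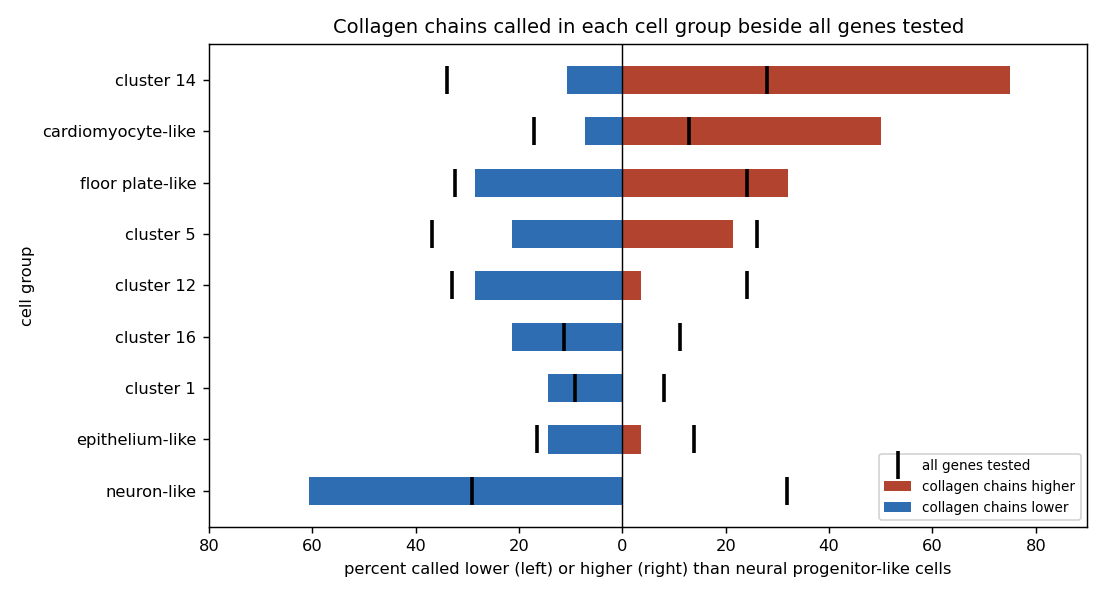
Percent of the 28 tested collagen chain genes called lower (blue, left) or higher (red, right) than in neural progenitor-like cells, for each cell group, with black ticks at the percent of all 12023 genes tested. The bars pass well beyond the ticks for higher chains in cluster 14 and cardiomyocyte-like cells and for lower chains in neuron-like cells.

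Among fibrillar collagens, the chains of types I, III and V carried most of the signal of cluster 14. COL1A1, which encodes the major chain of type I collagen, stood at 16331 and 17326 CPM there, against 15 and 21.9 in neural progenitor-like cells (log2 fold change 9.82 ± 0.32 SE, adjusted p = 5.3e-41). COL1A2, its partner chain in the type I helix, stood at 10726 and 11263 against 15.2 and 20.5 (9.26 ± 0.30 on the log2 scale). COL3A1, whose chain forms the type III collagen of soft tissue, was the most abundant collagen transcript in cluster 14 in both libraries, at 18849 and 20132 against 33.6 and 33.1 (log2 fold change 9.19 ± 0.31 SE, adjusted p = 2.8e-40). Cluster 14 held 93.0% of all COL1A1 UMI, 89.3% of those of COL1A2 and 85.6% of those of COL3A1. The type V chains, which sit inside type I fibrils and limit their width, were lower in level and less concentrated. COL5A1 stood at 1433 and 1432 in cluster 14 against 11.9 and 14.9 (6.73 ± 0.17), and COL5A2 at 2142 and 2398 against 50.4 and 43.4 (5.6 ± 0.16), with 49.9% of its UMI in the cluster. For each of these 5 chains both libraries of cluster 14 lay far above both libraries of the reference.

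COL1A1 had a UMI in 94.3% and 95.8% of cluster 14 cells and in 7.0% and 8.67% of neuron-like cells, set beside them as a low baseline. Free RNA was not measured, and its part in that baseline was not tested. Median depths were 11773 and 12104 UMI in cluster 14 and 6354 and 6518 in neuron-like cells. With cells thinned to 2000 UMI, every remaining cell of cluster 14 kept a UMI of COL1A1, against 3.99% and 1.25% of neuron-like cells. Thinning left out 2 and 8 shallower cells of cluster 14, 24 and 25 neuron-like cells, 21 and 15 floor plate-like cells, 5 and 3 cells of cluster 5 and 4 and 3 of cluster 13, a neural progenitor-like cluster. Outside cluster 14 and the cardiomyocyte-like cells COL1A1 stood at 7.34 to 32.8 CPM over the libraries of the other groups compared. Of the groups outside this comparison, described below, mesenchyme-like cells, at 210.4 and 172 CPM, and cluster 17 were higher in COL1A1. In neuron-like cells (12.7 and 14.5 CPM, log2 fold change -0.44), as in floor plate-like cells (32.8 and 14, 0.21), it was not called different from the reference. COL1A2 and COL3A1 were not called in neuron-like cells either, at 15.9 and 13.1 and at 33.9 and 21.8 CPM (-0.30 and -0.28).

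In cardiomyocyte-like cells COL1A1 was at 656 and 341 CPM (4.65 ± 0.34), COL1A2 at 246 and 509 (4.49 ± 0.32) and COL3A1 at 1604 and 1216 (log2 fold change 5.38 ± 0.28 SE, adjusted p = 8.0e-27). All lay above both reference libraries. COL3A1 had a UMI in 8 of the 11 and 12 of the 20 cells, but the UMI were unevenly spread: the 3 cells with the most UMI held 94.6% and 56.1% of the COL1A1 UMI and 91.2% and 65.5% of the COL3A1 UMI of the group. The type V chains were also higher, COL5A1 at 187 and 186 (3.78 ± 0.37) and COL5A2 at 328 and 485 (3.17 ± 0.26).

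Floor plate-like cells, named for the cells at the ventral midline of the neural tube, had more type III transcript than neural progenitor-like cells, while the type I chains stayed low. COL3A1 stood at 232 and 224 CPM, against 33.6 and 33.1 in neural progenitor-like cells (log2 fold change 2.77 ± 0.25 SE, adjusted p = 1.6e-15), and the libraries of the groups did not overlap. It had a UMI in 42.1% and 48.9% of floor plate-like cells and 12.3% and 11.0% of neuron-like cells, at median depths of 7293 and 8432 and 6354 and 6518 UMI, and after thinning to 2000 UMI in 27.3% and 29.7% and 3.99% and 4.05%. Of the neural progenitor-like cells, 95 of 850 and 107 of 939 had a UMI of COL3A1, at median depths of 4541 and 4312 UMI. COL5A2, the neighbour of COL3A1 in the genome, moved the same way, at 129.6 and 137 against 50.4 and 43.4 (log2 fold change 1.5 ± 0.17 SE, adjusted p = 4.7e-11, by edgeR alone). COL1A2 stood at 47.5 and 32.7 against 15.2 and 20.5 (log2 fold change 1.12 ± 0.29 SE, adjusted p = 7.9e-04, by edgeR alone), and COL1A1 was not called. Mesenchyme markers summed to 139.8 and 122 CPM in floor plate-like cells, 10 of 14 with a UMI, and hepatic or yolk sac endoderm markers to 462 and 440 CPM, 7 of 10 with a UMI, mostly APOA1. Their part in the result was not tested. SOX2, a neural progenitor gene, had a UMI in 57 of the 69 and 111 of the 134 floor plate-like cells with a UMI of COL3A1. Of all floor plate-like cells, 111 of 164 and 212 of 274 had a UMI of SOX2.

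**Figure D3:**
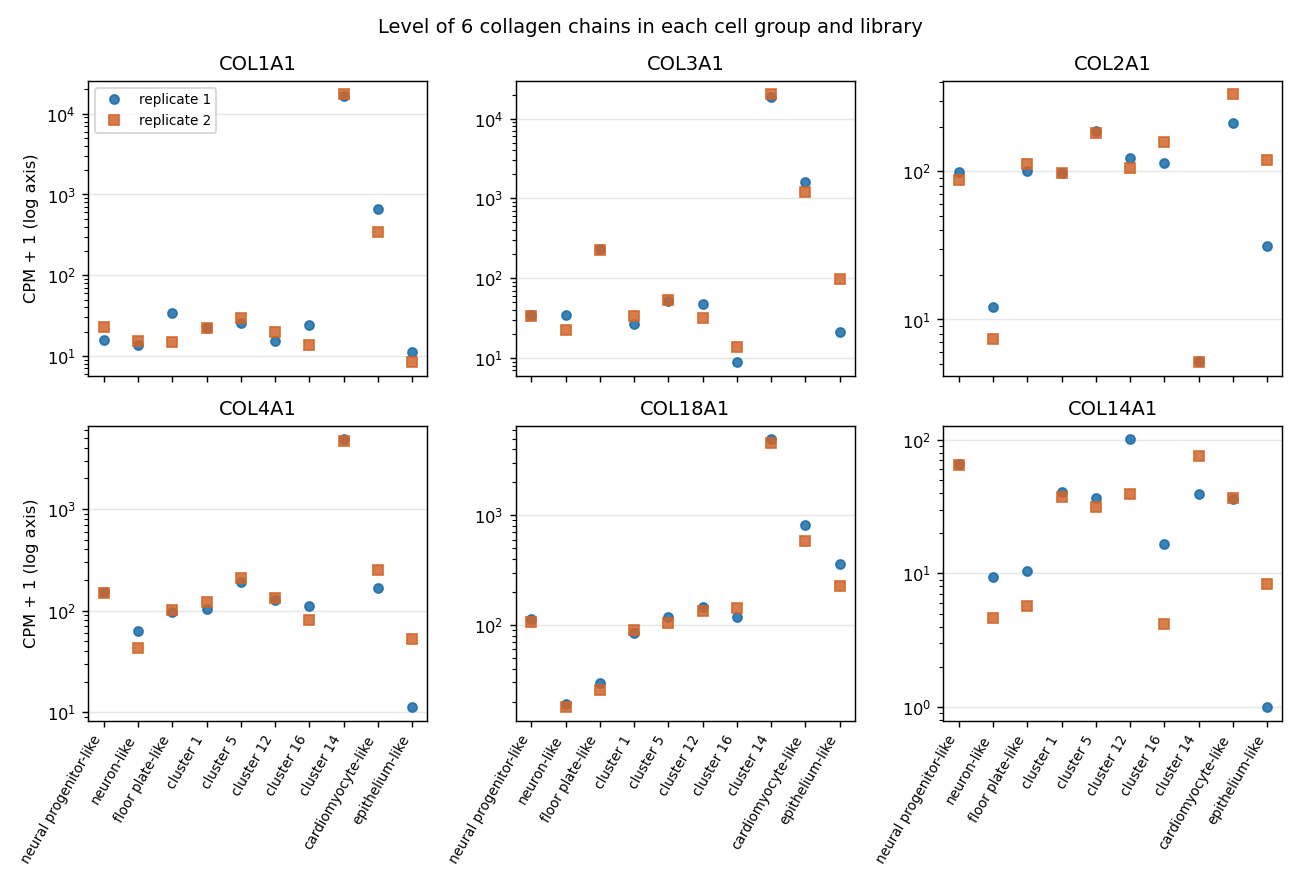
Level of 6 collagen chain genes in each cell group, as CPM + 1 on a log axis, with circles for replicate 1 and squares for replicate 2. COL1A1, COL3A1, COL4A1 and COL18A1 peak in cluster 14, where COL2A1 is at its lowest, and COL3A1 alone of the 4 is raised in floor plate-like cells, at 232 and 224 CPM.

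The other fibrillar chains tested differed in where their mean level was highest, among groups with cells in both libraries. This was in cardiomyocyte-like cells for COL2A1 and in cluster 14 for COL11A1 and COL27A1. For COL24A1 it was in surface or gut epithelium-like cells (95.7 CPM, not called higher). COL2A1 encodes the chain of type II collagen, the main collagen of cartilage, which is also made by notochord and by several embryonic epithelia. In cluster 14 it was almost absent, at 4.27 and 4.14 CPM against 97.8 and 86.3 in neural progenitor-like cells (log2 fold change -4.43 ± 0.52 SE, adjusted p = 1.7e-11). Neuron-like cells were low as well, at 11.1 and 6.34 (-3.41 ± 0.23), and floor plate-like cells, at 99.4 and 111, were not called (0.21), though they were called higher at Leiden resolution 0.5 (0.38, edgeR adjusted p = 0.012) and against the mean of all other groups (0.70, edgeR adjusted p = 3.8e-04). Cluster 5, led by CATHL5 and KRT18 and with the cell division gene PTTG1, was higher, at 187 and 182 (log2 fold change 1.0 ± 0.15 SE, adjusted p = 1.1e-08, by edgeR alone), and so were cardiomyocyte-like cells, at 211 and 329 (1.64 ± 0.25). In cluster 5 it had a UMI in 70.1% and 71.5% of cells, against 6.0% and 3.76% of neuron-like cells, at median depths of 9669 and 10672 and 6354 and 6518 UMI, and after thinning in 31.7% and 26.2% and 2.17% and 0.935%. Neuron-like cells, themselves low in COL2A1, are a low baseline here and not the reference cells of the call.

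COL24A1, which encodes a minor fibrillar chain, followed COL2A1 in cluster 14, at 8.53 and 2.07 CPM against 87.1 and 85.4 (log2 fold change -4.35 ± 0.54 SE, adjusted p = 1.0e-10). Its level in cardiomyocyte-like cells was 0 and 18 (-2.87 ± 0.67) and in neuron-like cells 8.49 and 21.8 (-2.47 ± 0.21 by edgeR alone). COL11A1, whose chain joins type II fibrils, was instead higher in cluster 14, at 222 and 118 against 67.3 and 51.3 (log2 fold change 1.43 ± 0.23 SE, adjusted p = 2.4e-07, by edgeR alone), and lower in neuron-like cells, at 26.0 and 16.3 (-1.49 ± 0.21 by edgeR alone). COL27A1, another minor fibrillar chain, was higher in cluster 14, at 132 and 120.0 against 15.6 and 15 (3.02 ± 0.30). It was higher in floor plate-like cells, at 35.4 and 38.3 (1.28 ± 0.27 by edgeR alone), and lower in neuron-like cells, at 5.30 and 0.453 (-2.46 ± 0.45 by edgeR alone). In each of these calls the libraries of the group and of the reference did not overlap. Of the 9 fibrillar chains tested, 7 were thus higher and 2 lower in cluster 14 (all genes 28.0% and 33.9%). The counts were 6 and 1 in cardiomyocyte-like cells (all genes 13.0% and 17.2%), 4 and 1 in floor plate-like cells (24.1% and 32.3%) and 0 and 5 in neuron-like cells (31.8% and 29.2%). Most of these calls in floor plate-like and neuron-like cells were made by edgeR and not by limma-trend.

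Type IV chains, the network of basement membranes, had UMI in each of the 10 groups. COL4A1 and COL4A2 encode the chains of the common type IV molecule and are transcribed from a shared promoter region. COL4A1 had a UMI in 44.1% of all cells and COL4A2 in 42.8%, more than any other chain. In the reference cells it stood at 153 and 148 CPM and in cluster 14 at 4851 and 4726 (log2 fold change 4.99 ± 0.14 SE, adjusted p = 2.2e-45). COL4A2 stood at 129 and 131 and at 2607 and 2508 (4.3 ± 0.14). Cluster 14 held 48.3% of the COL4A1 UMI and 38.9% of the COL4A2 UMI, less than of the type I chains. In neuron-like cells both were lower, COL4A1 at 61.5 and 41.7 (log2 fold change -1.56 ± 0.16 SE, adjusted p = 2.3e-13) and COL4A2 at 56.7 and 63.9 (-1.10 ± 0.16 by edgeR alone). In floor plate-like cells COL4A1 was at 96.8 and 100.5 (-0.60 ± 0.15 by edgeR alone) and COL4A2 at 64.8 and 68.2 (-0.95 ± 0.16 by edgeR alone). In cardiomyocyte-like cells neither was called, at 164 and 252 and at 211 and 179.6 (0.55 and 0.56), though both were called higher with DESeq2's size factors and Wald test, at Leiden resolution 0.5 and with doublets kept.

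The second type IV pair, COL4A5 and COL4A6, whose chains build the type IV network of certain epithelia and smooth muscle, had another order. In cluster 14 they were higher, COL4A5 at 337 and 358 CPM against 51.1 and 45.5 (2.84 ± 0.19) and COL4A6 at 222 and 269 against 35.4 and 33.1 (2.87 ± 0.19), a smaller difference than for COL4A1. Neuron-like cells were at 10.6 and 3.63 for COL4A5 (log2 fold change -2.80 ± 0.28 SE, adjusted p = 1.3e-12) and at 3.18 and 4.08 for COL4A6 (-3.19 ± 0.31). In floor plate-like cells they were higher, where COL4A1 and COL4A2 were lower: COL4A5 stood at 79.5 and 95.8 (0.87 ± 0.17 by edgeR alone) and COL4A6 at 61.3 and 47.2 (0.62 ± 0.18 by edgeR alone). Cardiomyocyte-like cells were also higher, at 152 and 204 (1.92 ± 0.33 by edgeR alone) and at 117 and 77.8 (1.41 ± 0.40). Cluster 12, led by SERPINA1, AHSG and AFP, was lower, at 17.8 and 23.8 (-1.19 ± 0.32 by edgeR alone) and at 12.4 and 7.95 (-1.79 ± 0.38). None of these group libraries overlapped the reference. The floor plate-like cells came from clusters 7 and 11, which were also compared with the mean of the neural progenitor-like clusters, after the data had been seen. Cluster 7 had 2 type IV chains higher and 2 lower (all genes 3419 and 3849 of 12000). Cluster 11 had 2 higher and 0 lower (all genes 1315 and 736), so lower type IV chains were called in cluster 7 only.

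COL18A1 encodes the multiplexin type XVIII, a basement membrane collagen whose end fragment is endostatin. Its level was 4915 and 4585 CPM in cluster 14, 819.6 and 587 in cardiomyocyte-like cells and 355 and 228 in surface or gut epithelium-like cells, against 113 and 105 in neural progenitor-like cells. This was a log2 fold change 5.45 ± 0.14 SE, adjusted p = 3.1e-48 for cluster 14, and in the other two 2.64 ± 0.19 and 1.38 ± 0.26 on the log2 scale. It was the only chain called higher in the epithelium-like cells, in which COL4A1, at 10.2 and 51.4 (-2.14 ± 0.48), and COL4A2, at 0 and 58.7 (-1.93 ± 0.48), were lower. The epithelium-like group was small and uneven, since 1 of its 2 clusters had 1 cell in replicate 1. COL18A1 was lower in neuron-like cells, at 18 and 16.8 (log2 fold change -2.64 ± 0.20 SE, adjusted p = 7.8e-20), and in floor plate-like cells, at 28.5 and 24.8 (log2 fold change -2.04 ± 0.19 SE, adjusted p = 9.5e-15). In both groups the libraries lay below those of the other 8 groups. COL7A1, whose chain forms the anchoring fibrils that tie epithelial basement membrane to the tissue beneath, was low throughout. In neural progenitor-like cells it stood at 20.4 and 23.6, and elsewhere at 21.3 and 4.14 in cluster 14 (not called, -1.15) and 33.9 and 33.6 in cluster 1. It was lower in neuron-like cells, at 2.65 and 6.34 (-2.23 ± 0.36 by edgeR alone), in cluster 12, at 3.55 and 3.97 (-2.51 ± 0.56 by edgeR alone), and in cluster 5, at 8.29 and 6.59 (-1.62 ± 0.39 by edgeR alone).

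Type VI chains, which assemble into beaded filaments around cells in connective tissue, were higher in cluster 14 and in cardiomyocyte-like cells. COL6A1 stood at 930.1 and 1039 CPM in cluster 14 against 0.778 and 0.700 in the reference (log2 fold change 10.21 ± 0.25 SE, adjusted p = 3.3e-47), and 90.1% of its UMI were in cluster 14. COL6A2 stood at 550.4 and 693 against 7.39 and 5.77 (6.56 ± 0.19) and COL6A3 at 828 and 817 against 2.92 and 1.57 (8.48 ± 0.22). Cardiomyocyte-like cells were next, with COL6A1 at 70.3 and 53.9 (6.14 ± 0.76), COL6A2 at 105 and 59.9 (3.49 ± 0.52) and COL6A3 at 23.4 and 95.8 (4.95 ± 0.63). In the remaining groups of this comparison the 3 chains stayed at or under 11.8 CPM in both libraries. Of these groups, floor plate-like cells had 1 type VI chain called higher (all genes 24.1%). Mesenchyme-like cells, fitted separately below, had COL6A2 at 61.9 and 53.7 CPM, called higher. COL6A1 was there at 37.1 and 0 and COL6A3 at 0 and 21.5, neither called. Against the mean of the neural progenitor-like clusters, all 3 were called higher in the neuron-like cluster 9 (all genes 3494 of 12000 higher). In the neuron-like cluster 10, 1 was called lower (all genes 3489 of 12000 lower). COL6A5 and COL6A6 had 4 and 16 UMI over all cells.

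Fibril-associated collagens do not form fibrils of their own but bind to the surface of others. COL12A1 (type XII) and COL16A1 (type XVI) were higher in cluster 14 and not called in cardiomyocyte-like cells, at 23.4 and 29.9 and at 0 and 5.99 CPM. COL12A1 stood at 747 and 873 CPM in cluster 14 against 20.6 and 18.9 (log2 fold change 5.36 ± 0.16 SE, adjusted p = 2.8e-43). COL16A1 stood at 256 and 242 against 2.33 and 2.45 (6.64 ± 0.33). COL12A1 was lower than the reference in neuron-like cells, at 3.18 and 0.906 (-3.27 ± 0.40), and in cluster 5, at 6.91 and 5.39 (-1.75 ± 0.38 by edgeR alone). It was lower, too, in cluster 12, at 0 and 2.65 (-3.63 ± 0.68), and in cluster 16, at 0 and 3.18 (-3.43 ± 0.97, not called by DESeq2's Wald test). It had no UMI in surface or gut epithelium-like cells, so with 3 counts over both libraries taken as the floor it was at least 1.55-fold lower. Against the mean of all other groups COL12A1 was not called lower in neuron-like cells or in clusters 5, 12 and 16. COL14A1 (type XIV) behaved in another way, since it was not called in cluster 14, at 38.4 and 74.5 against 64.4 and 63.2, and the libraries overlapped (0.00). Against the mean of all other groups it was called higher there (1.76, edgeR adjusted p = 5.9e-05).

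COL14A1 was lower than in neural progenitor-like cells in neuron-like cells, at 8.49 and 3.63 CPM (log2 fold change -3.42 ± 0.28 SE, adjusted p = 3.1e-15), and in floor plate-like cells, at 9.5 and 4.67 (log2 fold change -3.27 ± 0.30 SE, adjusted p = 2.3e-13). Cluster 16, led by RSPO2 and TRPM3, was lower too, at 15.7 and 3.18 (-2.84 ± 0.56), as were surface or gut epithelium-like cells, at 0 and 7.34 (-3.86 ± 1.02), cluster 5, at 35.9 and 30.6 (-0.94 ± 0.23 by edgeR alone), and cluster 1, at 39.6 and 36.6 (-0.75 ± 0.21 by edgeR alone). So COL14A1 was lower than in the reference in 6 of the 9 groups compared and higher in none, though DESeq2's Wald test did not call it in clusters 5 and 1. Of these 6 groups, against the mean of all other groups it was still called lower in neuron-like and floor plate-like cells, was called higher in cluster 1 (0.93) and was not called in the remaining 3. In cluster 1 the other lower chains were COL25A1, COL4A1, at 102 and 119 (-0.44 ± 0.16 by edgeR alone), and COL4A2, at 91.7 and 95.5 (-0.47 ± 0.16 by edgeR alone).

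COL25A1 and COL23A1 encode transmembrane collagens. COL25A1, known for its part in the growth of motor axons and for the amyloid plaque component CLAC, was highest in neural progenitor-like cells, at 123 and 87.0 CPM. It was called lower in neuron-like cells, at 7.96 and 15 (log2 fold change -3.13 ± 0.28 SE, adjusted p = 9.6e-10). So it was in floor plate-like cells, at 26.8 and 16.4 (-2.34 ± 0.27 by edgeR alone), in cluster 14, at 0 and 2.07 (-6.10 ± 0.85), and in cluster 5, at 16.6 and 19.2 (-2.47 ± 0.31). It was also called lower in cluster 16, at 23.5 and 9.54 (-2.70 ± 0.54), in cluster 12, at 3.55 and 29.1, and in cluster 1, at 24.8 and 32.1 (-1.86 ± 0.27 by edgeR alone). Cardiomyocyte-like cells had no UMI of it, so with the same floor it was at least 8.82-fold lower. It was thus called lower in 8 of the 9 groups, and in the epithelium-like cells it stood at 30.5 and 36.7 and was not called. This tally rests on the reference, whose level came mostly from 1 of its clusters, cluster 13, at 771 and 476 CPM, while the other 5 ranged from 5.47 to 94.0. Against the mean of all other groups the sign turned in 5 of the 7 groups for which that value was computed, and in the other two, cluster 14 and cardiomyocyte-like cells, it was no longer called. COL23A1 was higher in cardiomyocyte-like cells, at 176 and 192 against 10.9 and 9.62 (log2 fold change 4.23 ± 0.42 SE, adjusted p = 2.0e-11), and in cluster 14, at 137 and 68.3 (3.22 ± 0.36).

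COL8A2, whose chain builds the short-chain network of the corneal basement membrane, was higher in cluster 14, at 128 and 159 CPM against 2.33 and 1.57 (log2 fold change 6.16 ± 0.42 SE, adjusted p = 5.0e-22), and under 20 CPM in the other groups. COL26A1, which fits no family, was higher in cluster 14, at 166 and 168 against 33.1 and 30.6 (2.39 ± 0.22), and in cluster 5, at 53.9 and 77.9 (1.13 ± 0.19 by edgeR alone). The same held in floor plate-like cells, at 61.3 and 46.3 (0.71 ± 0.18 by edgeR alone), and in cluster 12, at 42.6 and 53.0 (0.61 ± 0.25 by edgeR alone), where it was the 1 chain called higher. Cardiomyocyte-like cells were at 46.8 and 108 and also called higher. Cluster 12 was lower in COL11A1, at 17.8 and 37.1 (-1.01 ± 0.29 by edgeR alone). The 19 chains that never reached 20 CPM in both libraries of a group had 4 to 196 UMI in all, and 16 of them were too rare to be tested.

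Genes that make, bind or break down collagen were counted from 5 lists. Of 29 tested genes of collagen biosynthesis and processing, 24 were higher and 4 lower in cluster 14 (median log2 fold change 2.68). SPARC, a collagen-binding matrix protein, stood at 8750 and 8801 CPM against 93.7 and 89.2 (log2 fold change 6.58 ± 0.25 SE, adjusted p = 9.2e-37). PCOLCE, which speeds the removal of the end of procollagen, was at 435 and 521 against 3.89 and 3.32 (7.03 ± 0.22). FKBP10, a folding enzyme of procollagen, stood at 491 and 399 against 6.61 and 10.5 (5.64 ± 0.21), and LOXL2, an enzyme that cross-links collagen, at 904 and 921 against 23.9 and 18.7 (5.42 ± 0.19). Of 8 collagen receptors tested 4 were higher and 1 lower. The receptor kinase DDR2 was at 273 and 289.7 against 3.50 and 6.82 (5.73 ± 0.27), the uptake receptor MRC2 at 469 and 552 against 40.5 and 35.7 (3.77 ± 0.17) and the integrin chain ITGB1 at 516 and 552 against 155 and 143 (1.85 ± 0.14). ITGA2, the other chain of a collagen-binding integrin, was lower, at 4.27 and 4.14 against 152 and 136 (-5.05 ± 0.49).

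In the same cluster 11 of 15 basement membrane partners were higher and 2 lower (median 2.69). The laminin chain LAMA4 stood at 294 and 240.0 CPM against 1.36 and 2.27 (7.09 ± 0.37) and LAMB1, another, at 666 and 592 against 15.4 and 18.5 (5.18 ± 0.17). The laminin chain LAMA5 stood at 154 and 213 against 6.42 and 6.47 (4.84 ± 0.28) and NID2, which links laminin to type IV collagen, at 533 and 457 against 10.1 and 11.9 (5.46 ± 0.18). Of 18 genes of the matrix around fibrils 14 were higher and 3 lower (median 4.44). The small proteoglycans DCN and LUM, which bind type I fibrils, stood at 5056 and 6742 against 51.3 and 78.2 and at 1907 and 2628 against 9.72 and 14.7 (6.52 ± 0.25 and 7.53 ± 0.16). BGN, of the same family, was at 119 and 151 against 0.583 and 0.700 (7.57 ± 0.50) and the matrix protein TNC at 427 and 478 against 4.86 and 4.55 (6.56 ± 0.22). Genes of collagen breakdown were split, 4 of 8 higher and 3 lower. The inhibitors TIMP1 and TIMP2 were at 465 and 701 against 10.3 and 14.5 and at 290.1 and 540.1 against 47.1 and 53.0 (5.56 ± 0.19 and 3.12 ± 0.17), and the proteases CTSK and MMP2 at 85.3 and 95.2 against 7.58 and 7.87 and at 81.1 and 57.9 against 9.92 and 10.7 (3.54 ± 0.32 and 2.69 ± 0.36). For all 5 counts the background is that of cluster 14, 28.0% of all genes tested higher and 33.9% lower.

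Cardiomyocyte-like cells had 13 of 29 biosynthesis genes higher and 3 lower, where 13.0% of all genes tested were higher and 17.2% lower. The prolyl hydroxylase subunit P4HA2 stood at 105 and 132 CPM against 10.5 and 15.7 (3.16 ± 0.40). SERPINH1, the chaperone of procollagen, was at 503 and 497 against 71.2 and 80.7 (2.70 ± 0.22) and SPARC at 1077 and 605 (3.14 ± 0.25). MIA2, which helps load large cargo for secretion, was lower, at 11.7 and 12 against 112 and 110.4 (-3.19 ± 0.61). Of 18 genes of the matrix around fibrils 12 were higher and 0 lower (1 at an unadjusted edgeR p under 0.05), among them POSTN at 141 and 222 against 3.89 and 1.40 (6.14 ± 0.58, not called by DESeq2's Wald test) and DCN at 1066 and 1671 (4.4 ± 0.25).

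Neuron-like cells had 3 of 29 biosynthesis genes higher and 16 lower, and 2 of 15 basement membrane partners higher and 11 lower, where 31.8% of all genes were higher and 29.2% lower. With limma-trend these counts were 1 and 5, and 0 and 4. The prolyl hydroxylase genes P4HA1 and P3H2 were at 33.9 and 17.7 CPM against 185 and 165 and at 18.6 and 9.97 against 84.0 and 82.1 (-2.79 ± 0.20 and -2.56 ± 0.21). Laminin chain LAMA1 was at 37.1 and 32.2 against 103 and 104 (-1.58 ± 0.16) and FREM2, of the complex under embryonic epithelia, at 7.43 and 7.70 against 65.0 and 67.2 (-3.11 ± 0.25). Floor plate-like cells had 13 of 29 biosynthesis genes higher and 5 lower (all genes 24.1% and 32.3%), or 3 and 1 with limma-trend. Among them PPIB, a folding enzyme of procollagen, was at 843 and 850.1 against 165 and 211 (2.18 ± 0.20) and SERPINH1 at 306 and 306 against 71.2 and 80.7 (2.01 ± 0.14). P4HB, a prolyl hydroxylase subunit that also acts on other secreted proteins, was at 308 and 314 against 118 and 126 (1.35 ± 0.13). ADAMTS3, which trims type II procollagen, had its highest level in cluster 16, at 877 and 776 against 72.9 and 65.8 (log2 fold change 3.57 ± 0.15 SE, adjusted p = 5.7e-33).

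Collagen chains also differed among the 6 clusters of neural progenitor-like cells, each compared with the mean of the other 5 over 12000 genes, 27 of them collagen chains. This comparison was added after the data had been seen. Cluster 13 had 11 chains higher and 2 lower (all genes 25.4% and 26.6%), cluster 3 had 12 higher and 1 lower (16.8% and 10.6%). Cluster 8, led by cell division genes such as CDK1 and TTK, had 0 higher and 11 lower (16.8% and 11.4%). At an unadjusted p under 0.05, 0 chains were higher in cluster 8 by edgeR. With limma-trend the counts were 9 and 1 in cluster 13, 6 and 0 in cluster 3, and 0 and 6 in cluster 8.

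Cluster 13, with CHRM3, DCHS2 and EDIL3 among its leading genes, carried most of the COL25A1 UMI of the class, 435 and 385 where no other cluster had over 75. It stood there at 771 and 476 CPM, where the other 5 clusters ranged from 5.47 to 94.0 (log2 fold change 4.46 ± 0.25 SE, adjusted p = 2.7e-11). It had a UMI in 47.9% and 51.0% of cluster 13 cells and 2.67% and 3.76% of neuron-like cells, at median depths of 7976 and 9460 and 6354 and 6518 UMI, and after thinning in 40.3% and 36.6% and 1.45% and 1.87%. Neuron-like cells are a low baseline here and not the clusters of this comparison. Fibrillar and type IV chains were higher in the same cluster: COL3A1 at 172 and 95.2 (log2 fold change 2.74 ± 0.23 SE, adjusted p = 3.1e-18), COL5A2 at 144 and 108 (1.91 ± 0.18) and COL1A2 at 35.4 and 55.6 (1.84 ± 0.30). COL12A1 was at 65.6 and 37.1 (1.78 ± 0.27), COL24A1 at 177 and 158 (1.22 ± 0.18) and COL4A1 at 285 and 341 (1.30 ± 0.13). COL14A1 was lower, at 16 and 14.8 (-2.05 ± 0.35).

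Cluster 3, with IL1RAPL2, FOXP2 and SAMD5 among its leading genes, had the highest levels of the second type IV pair among these clusters, COL4A5 at 147 and 135 CPM (log2 fold change 2.08 ± 0.17 SE, adjusted p = 4.9e-19) and COL4A6 at 105 and 91.3 (2.01 ± 0.20). It was also higher in COL26A1, at 80.3 and 82.7 (1.76 ± 0.22), and COL27A1, at 40.1 and 38.3 (1.95 ± 0.32). So it was in COL14A1, at 120.4 and 142 (1.58 ± 0.21), COL2A1, at 196 and 152 (1.10 ± 0.14), and COL18A1, at 203 and 164 (0.85 ± 0.15 by edgeR alone). Cluster 2, led by THSD4 and with the dorsal gene PAX3, shared the higher COL14A1, at 123 and 118 (1.37 ± 0.21 by edgeR alone). It was also higher in COL11A1, at 109 and 111 (1.10 ± 0.17), COL24A1, at 148 and 163 (0.99 ± 0.17 by edgeR alone), and COL4A2, at 214 and 233 (0.83 ± 0.13). In cluster 0 the anchoring fibril chain COL7A1 was higher, at 56.0 and 51.6 (log2 fold change 2.01 ± 0.27 SE, adjusted p = 1.4e-09). COL4A1, at 90.2 and 82.8 (-1.0 ± 0.15), and COL24A1, at 33.3 and 50.7 (-1.21 ± 0.21 by edgeR alone), were lower. In cluster 8 the lower chains included COL25A1, at 5.47 and 14.4 (-2.55 ± 0.59), COL27A1, at 4.1 and 2.88 (-2.21 ± 0.54), and COL26A1, at 10.9 and 16.3 (-1.27 ± 0.31 by edgeR alone).

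**Figure D4:**
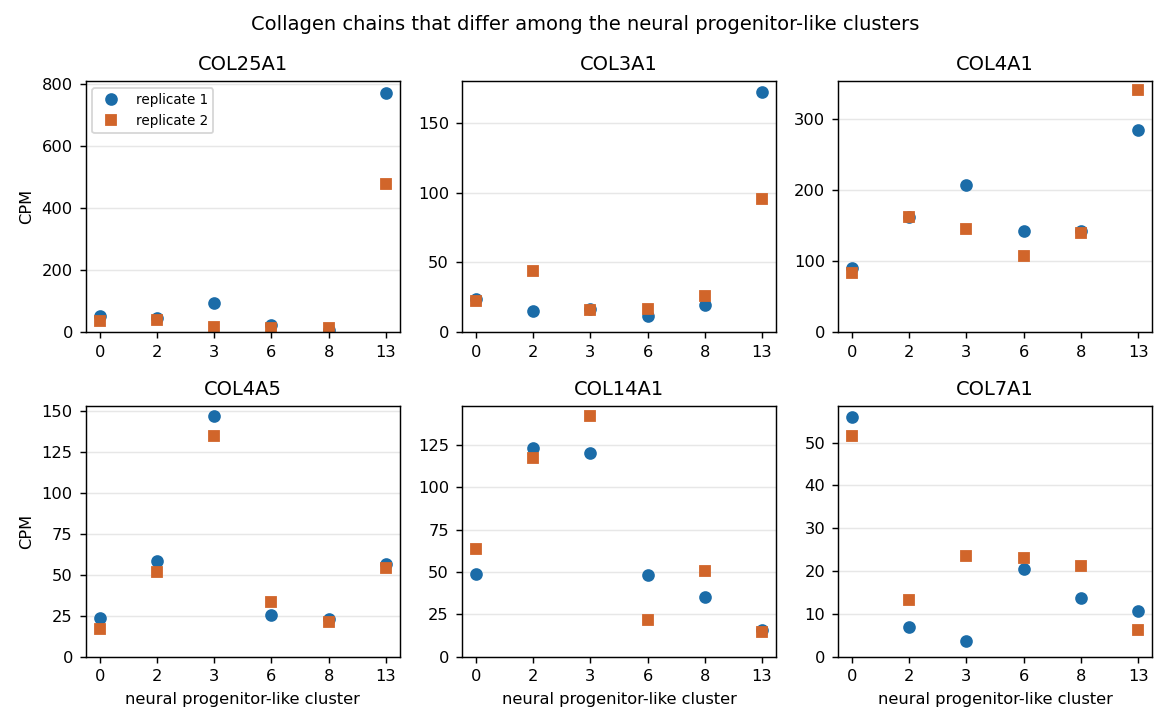
Level of 6 collagen chain genes, as CPM, in each of the 6 neural progenitor-like clusters, with circles for replicate 1 and squares for replicate 2. COL25A1, COL3A1 and COL4A1 are highest in cluster 13 in both libraries, COL4A5 in cluster 3, COL14A1 in clusters 2 and 3, and COL7A1 in cluster 0, at 56.0 and 51.6 CPM.

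Ratios of captured UMI between chains give a view that does not rest on the scaling between groups, with 95% intervals that cover counting error only. COL3A1 exceeded COL1A1 1.15-fold and 1.16-fold in cluster 14, and 7.05 (interval 5.01 to 10.2) and 16 (interval 11.0 to 23.9) times in floor plate-like cells. The ratio was 2.25 and 1.51 in neural progenitor-like cells, while cardiomyocyte-like cells had 2.45 and 3.56. In each library the interval of floor plate-like cells lay above those of cluster 14, of neural progenitor-like and neuron-like cells and of cardiomyocyte-like cells. Cluster 13 was the other place where COL3A1 exceeded COL1A1 by far, at 32.3 (interval 10.7 to 159.5) and 4.28 (interval 2.54 to 7.60) times, from 3 and 18 UMI of COL1A1. COL1A1 to COL1A2, whose chains join unequally in the usual type I molecule, was 1.52 and 1.54 in cluster 14, against 0.987 and 1.07 in neural progenitor-like cells. In cluster 13 it was 0.150 and 0.400, with COL1A2 the more frequent chain in both libraries. In cardiomyocyte-like cells the libraries went opposite ways, at 2.67 and 0.671.

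COL4A1 to COL4A2 stood at 1.86 (interval 1.69 to 2.06) and 1.88 (interval 1.76 to 2.02) in cluster 14 against 1.19 (interval 1.07 to 1.32) and 1.13 (interval 1.02 to 1.25) in the reference, and these intervals did not overlap. COL4A5 to COL4A1, a ratio of the second type IV pair to the first, was 0.0695 and 0.0757 in cluster 14, 0.335 and 0.308 in the reference and 0.821 and 0.953 in floor plate-like cells. COL5A1 to COL5A2 was 0.669 and 0.597 in cluster 14, against 0.236 and 0.343 in neural progenitor-like cells. Several chains lie next to each other in the genome (RefSeq annotation of ARS-UCD2.0, used for gene order only, since the counts were made on bosTau9). Over 18 clusters the log levels of the neighbours COL4A1 and COL4A2 had a correlation of 0.94, COL4A5 and COL4A6 of 0.97, COL3A1 and COL5A2 of 0.87 and COL6A1 and COL6A2 of 0.87, where the median of all 378 pairs of tested chains was 0.49. Without cluster 14 and the cardiomyocyte-like cells the values were 0.92, 0.96, 0.63 and 0.21, with a median of 0.35. The clusters share libraries and differ in depth, so these are descriptions.

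**Figure D5:**
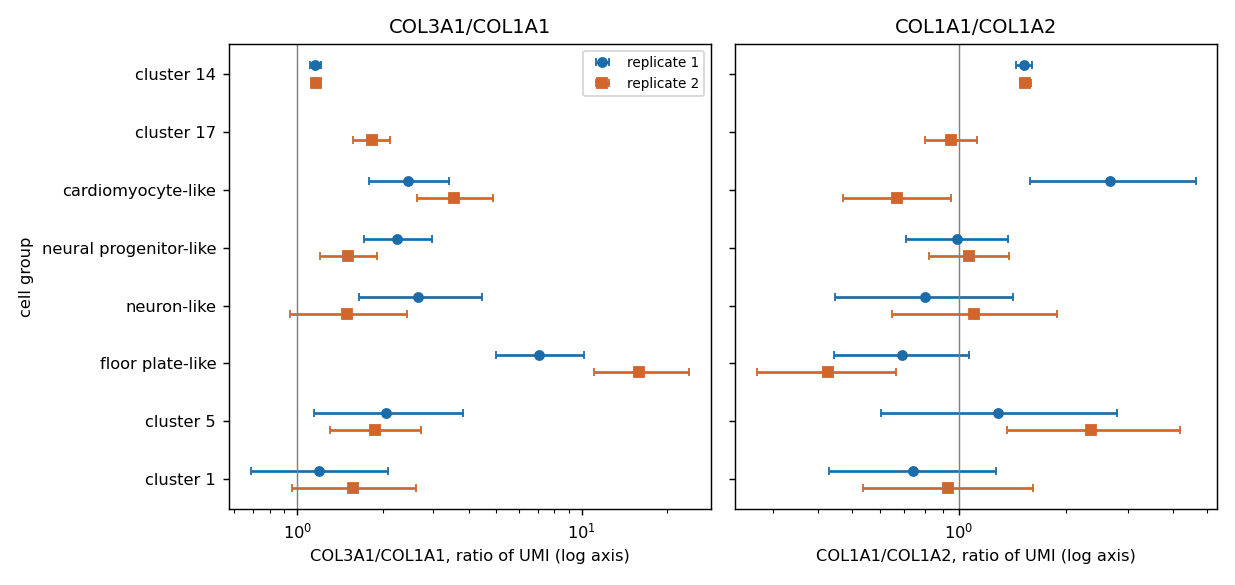
Ratio of summed UMI of COL3A1 to COL1A1 (left) and of COL1A1 to COL1A2 (right) in 8 cell groups, on log axes, with 95% counting intervals, circles for replicate 1 and squares for replicate 2, and a grey line at equal counts. Floor plate-like cells stand apart on the left, at 7.05 and 16.

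Groups with under 10 cells in a library were fitted separately with a minimum of 5, and are described after their values were known. In mesenchyme-like cells (9 and 10), 13 of 28 chains were higher than in neural progenitor-like cells and 0 lower (all genes 1.98% and 4.40%). COL1A1 stood at 210.4 and 172 CPM (3.24 ± 0.46, adjusted p = 2.4e-08), COL1A2 at 210.4 and 279 (3.67 ± 0.41) and COL4A1 at 446 and 333 (1.25 ± 0.30). These type I levels were far below those of cluster 14, and collagen was 0.444 and 0.379% of UMI. Mesenchyme markers summed to 658 and 635 CPM in mesenchyme-like cells (13 of 14 with a UMI). Neural progenitor markers summed to 996 and 730 CPM (7 of 9), mostly NES, against 1901 and 1881 CPM in the reference. The part of such markers in the result was not tested. Erythroid-like cells had 1 chain higher and 14 lower (all genes 17.7% and 28.7%), and the higher one was COL5A1, at 61.2 and 122 (2.87 ± 0.45), from 6 and 21 UMI. Trophoblast-like cells had 0 higher and 12 lower (all genes 16.8% and 29.7%). At an unadjusted edgeR p under 0.05, 0 chains were lower in mesenchyme-like and 0 higher in trophoblast-like cells. Collagen was 0.00795 and 0.0111% of UMI in erythroid-like and 0.00879 and 0.0121% in trophoblast-like cells.

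Cluster 17 had 69 cells, all in replicate 2, so the cluster and the library cannot be told apart and no test was made. Collagen was 0.763% of its UMI, above every group but cluster 14. COL3A1 stood at 1921 CPM (counting interval 1757 to 2097), COL4A1 at 1254, COL1A2 at 1109, COL1A1 at 1052 and COL18A1 at 507. Its ratio of COL1A1 to COL1A2 was 0.948 (interval 0.802 to 1.12), below that of cluster 14. COL3A1 had a UMI in 68 of the 69 cells, SOX2 in 35, both in 34 and GFP, which the deposited table lists as a gene, in all 69, at a median depth of 3338 UMI, where COL3A1 had a UMI in 11.0% of neuron-like cells of that library. In cluster 14 of the same library, at a median of 12104 UMI, SOX2 had a UMI in 2 of 71 cells and GFP in 28. Cluster 17 also held markers of the lists that were high in cluster 14. Hepatic or yolk sac endoderm markers summed to 3867 CPM (4 of 10 with a UMI) and epithelial markers to 1530 CPM (3 of 8), against 26633 and 8993 CPM in cluster 14 of that library. Mesenchyme markers summed to 82.2 CPM. The part of these in the result was not tested.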

How the data were processed

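Single-cell RNA was measured in 2 droplet libraries with 3′ capture, 11182089 and 15427708 UMI deep. The values used are UMI counts per gene and cell barcode, not normalised, as deposited by the authors. Per the submitters' processing notes the build was bosTau9 and the tools were Seurat 4.3.0, R 4.1.2 and Cell Ranger. The version of the last and the filter on barcodes are not given in the sources used here. Cells with under 500 genes, under 1000 UMI or over 15% mitochondrial UMI were removed, and Scrublet calls (1 and 6 cells) left out. Scanpy 1.11.5 clustered the cells (2000 variable genes, 30 components, 15 neighbours, Leiden resolution 1), giving 23 clusters. The collagen chains, the partner lists and GFP were kept out of the clustering.

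Counts were summed per cell group and library where both libraries had at least 10 cells. They were tested with edgeR 4.0.16 (R 4.3.3; TMM, filterByExpr, robust quasi-likelihood, library as a term), with Benjamini-Hochberg adjustment over all genes of a contrast. Genes with at least 20 CPM in both libraries of a group were described, and up to 4 genes of a partner list per group, those with the largest log2 fold change among called genes at 50.0 CPM or more. Shares and ratios have exact 95% intervals that cover counting error only. The alternatives were DESeq2 1.42.0 size factors and Wald test, limma-trend (limma 3.58.1), no count filter, other minimum cell numbers, Leiden resolution 0.5, another reference, no library term, no TMM factors, doublets kept and each library left out. On simulated counts (cluster 14 against the reference, 11095 genes) 66% of 2-fold and 97% of 4-fold changes were recovered, with 4 false calls. For neuron-like cells (11055 genes) the shares were 94% and 100%, with 15 false calls. For cardiomyocyte-like cells (11036 genes) they were 32% and 74%, with 5. Only genes with a mean of at least 20 counts were changed, 100 for each fold. The shares therefore do not cover rarer chains, nor groups that differ in more genes.

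The genes and lists were chosen with earlier results of these data known. The library numbers pair the groups, since all cells with a number come from 1 library. No nucleotide or protein sequence was used here.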

Additional observations from a re-analysis of the deposited data

Results flagged for a closer look

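Collagen UMI were also found in cell groups that entered no comparison for want of cells in a library. In cluster 17, found in replicate 2 only, collagen chains were 0.763% of UMI, and fibrillar chains were 61.9% of them. In cluster 15, with 69 cells in replicate 1 and 2 in replicate 2, they were 0.0859% and 0.114%. In binucleate trophoblast-like cells of replicate 1, 5 collagen UMI made 0.00777%. These values are listed because over 3 collagen UMI were present, which is no sign of expression, and no test was made. The share in binucleate trophoblast-like cells was near that of erythroid-like (0.00795% and 0.0111%) and trophoblast-like cells (0.00879% and 0.0121%). The source of these UMI was not tested. Those of cluster 15 lay within the range of the neural groups and clusters, from 0.0337% in neuron-like cells to 0.146% in neural progenitor-like cells.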

How the results depend on the processing

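Left out in turn, neither library changed the direction of a called chain: the counts stayed at 21 higher and 3 lower in cluster 14, 14 and 2 in cardiomyocyte-like cells and 0 and 17 in neuron-like cells. Only chains already called from both libraries were looked at, so these counts could not rise and were unlikely to fall. Without the replicate block, 21 chains were higher and 3 lower in cluster 14, 16 lower in neuron-like cells and 2 lower in cluster 1, and of the chain counts only the last moved by over 1.5 times. Among the partner lists, genes of the matrix around fibrils that were higher went from 2 to 1 in clusters 12 and 16. COL4A1 in clusters 1 and 5 and COL4A2 in cluster 1 lost their calls without it.

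In cluster 14 the counts of chains stayed at 19 to 23 higher and 2 to 3 lower over all alternatives. With limma-trend, chains called were 1 higher and 2 lower in floor plate-like cells, 0 and 1 in cluster 5, 0 and 3 in cluster 12, 3 lower in cluster 16, 0 lower in cluster 1 and 8 lower in neuron-like cells; 6 higher and 0 lower in cluster 3, 6 lower in cluster 8 and 1 lower in cluster 13. Biosynthesis genes were then 3 higher and 1 lower in floor plate-like cells and 1 and 5 in neuron-like cells, with 0 and 4 basement membrane partners. With DESeq2 size factors, cluster 12 had 2 higher, cluster 16 had 1 higher and cluster 3 had 0 lower. With DESeq2's Wald test, cluster 12 had 2 higher, cluster 16 had 1 higher and 2 lower, cluster 1 had 1 lower and epithelium-like cells had 3 higher. Without a count filter neuron-like cells had 2 higher. With at least 20 cells cluster 12 had 3 higher and cluster 16 had 1; with at least 5 cells cluster 16 had 1. At Leiden resolution 0.5, cluster 1 had 1 higher, cluster 16 had 1 higher and 3 lower, epithelium-like cells had 9 lower and cluster 14 had 2 biosynthesis genes lower. With doublets kept cluster 1 had 1 higher. Clusters 5 and 12 were not recovered at Leiden resolution 0.5, nor clusters 5, 12 and 16 with doublets kept, so they have no value there.

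Against the mean of all other groups, which holds cluster 14, cardiomyocyte-like cells had 0 chains lower, cluster 1 had 6 higher and 8 lower, clusters 12 and 16 had 2 and 1 higher and epithelium-like cells had 2 higher. Biosynthesis genes were 7 higher and 1 lower in cardiomyocyte-like cells, 7 and 2 in floor plate-like cells and 1 higher in neuron-like cells, where 0 basement membrane partners were higher; in cluster 14, 0 receptors, 0 fibril matrix genes and 1 breakdown gene were lower. Signs turned against that mean for COL25A1 in floor plate-like (1.04) and neuron-like cells (0.16) and clusters 5 (0.90), 1 (1.58) and 16 (0.64), for COL14A1 in clusters 5 (0.72) and 1 (0.93), for COL1A2 (-0.16) and COL1A1 (-1.28) in floor plate-like cells and for COL7A1 in cluster 14 (0.050). Of these, COL25A1 and COL14A1 in cluster 1 were then called higher and COL1A1 in floor plate-like cells lower. Calls were lost against that mean, at edgeR adjusted p of 0.053 to 1.0, for COL12A1 in neuron-like cells and clusters 5, 12 and 16, COL25A1 in cluster 14 and cardiomyocyte-like cells, COL24A1 in cardiomyocyte-like cells, COL14A1 in cluster 16 and epithelium-like cells, COL26A1 in floor plate-like cells and cluster 12, COL7A1 in clusters 5 and 12, ITGA2 in cluster 14 and LAMA1 in neuron-like cells. Calls were gained for COL1A1 (-2.00), COL1A2 (-1.74) and COL3A1 (-2.19) in neuron-like cells, COL2A1 in floor plate-like cells (0.70) and COL14A1 in cluster 14 (1.76). Against the reference cells, COL14A1 in cluster 14 was -0.25 with limma-trend, -0.065 without the count filter and -0.046 without the block. With 1 library left out it ranged from -0.75 to 0.24, COL7A1 in cluster 14 from -2.51 to 0.063, COL1A1 in floor plate-like cells from -0.64 to 1.13, and in neuron-like cells COL1A2 from -0.64 to 0.069 and COL3A1 from -0.60 to 0.013. The causes were not tested. Depth limits the 19 rare chains and the small groups: 3 counts over both libraries correspond to 12.8 CPM in epithelium-like and 11.9 CPM in cardiomyocyte-like cells.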
